A study of Homo sapiens with 6 samples.

Results

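The 10 genes described here form the core of the G1 to S phase switch: the D-type cyclins CCND1 and CCND3, their kinases CDK4 and CDK6, the E-type cyclins CCNE1 and CCNE2, their kinase CDK2, the inhibitor CDKN1B, the retinoblastoma gene RB1 and the transcription factor gene E2F1. They were chosen by name and matched through their Ensembl identifiers, and all 10 were found among the 63241 gene identifiers of the count files and among the 15295 genes that passed the filter on low counts.

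RNA was sequenced from MDA-MB-231, an established human triple-negative breast cancer cell line labelled wild type (WT) and cultured in DMEM with 10% fetal calf serum. One group, DMSO1 to DMSO3, received 0.1% DMSO as the vehicle, and the other, NCD1 to NCD3, received 5 μM NCD (nitidine chloride, a natural product) for the same 24 h. The comparison addresses how transcript levels changed with NCD. There were 3 libraries per group, all from a single cell line at 1 dose and 1 time, and nothing says whether they came from separate cultures, so p-values measure the spread between these libraries, which may be technical. The free-text line for NCD2 and NCD3 names the cells with a different number, whereas the cell line field is MDA-MB-231 throughout.

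In cells entering the cycle, mitogens induce D-type cyclins, which bind CDK4 or CDK6 and begin to phosphorylate the retinoblastoma protein. This releases E2F transcription factors, whose targets include the E-type cyclins and the DNA replication genes, and cyclin E with CDK2 completes the phosphorylation. The inhibitors of the CIP/KIP family (CDKN1A, CDKN1B, CDKN1C) act mainly on CDK2 complexes, and those of the INK4 family (CDKN2A to CDKN2D) act on CDK4 and CDK6. MDA-MB-231 cells are known to retain RB1 and to have lost the CDKN2A and CDKN2B locus, and CDK4/6 inhibitors are used in breast cancer of other subtypes.

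The labelled cell type was checked against its markers. CDKN2A and CDKN2B had 0 counts in all 6 libraries, where 3 counts would equal 0.139 to 0.165 CPM (counts scaled to library size) by raw library totals. The other CPM values in the text also carry the TMM scaling described below. Of 8 genes that this line should lack or hold at low levels, 6 stayed under 100 counts and ERBB2 and KRT19 did not. The 8 summed to 57.2 to 61.7 CPM with DMSO and 89.6 to 99.9 CPM with NCD. Most of it came from ERBB2 (35.2 to 38.4 CPM with DMSO and 58.3 to 62.6 CPM with NCD). The 3 that could be tested rose (log2 fold change of ERBB2 0.71, KRT19 0.63 and EPCAM 0.57), beside 35.3% of all tested genes. Of 6 genes that should be high, 5 were, with a summed level of 5643 to 5891 CPM with DMSO and 3716 to 3991 CPM with NCD, and SPARC had 6 to 18 counts. These 5 high genes fell (log2 fold change of CD44 -1.82, AXL -1.10, CAV1 -0.83, FN1 -0.31 and VIM -0.21, edgeR), beside 34.1% of all tested genes. These marker changes are on the TMM scale alone. Scaling by library totals raised log2 fold changes by a median of 0.20, and the markers' values under it are not given here. The part of such marker changes in the results was not tested. Immune and blood cell markers summed to 2 to 23 counts per library, with 3 of 6 at 0 everywhere. The libraries held 18223594 to 21629653 counts. DMSO2 and NCD3 stood apart within their groups, with a chi-square per degree of freedom of 8.56 to 16.9 against their partners, compared with 4.42 for DMSO1 and DMSO3 and 2.09 for NCD1 and NCD2. In both, genes with long transcripts (7.2 kb or more) lay above the mean of the other libraries of the group, by a median of 0.20 and 0.19 on the log2 scale. Genes with transcripts up to 1.3 kb lay below that mean by the same amounts. Values without these 2 libraries are given for CDK4, CDK6 and RB1 and for some of the related genes.

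The proximal promoters of 4 of the genes are printed because E2F sites and GC boxes (sites of the SP1 type) are the elements through which this switch is classically wired. RefSeq promoter windows (GRCh38.p14, 250 bases before to 50 after a start) within 1000 bases of the principal start were found for 6 of the 10 genes, namely CCND3, CCNE1, CDK4, CDK6, CDKN1B and E2F1. The runs are 150 bases long, 5′ to 3′ on the gene's strand. In E2F1 (minus strand, chr20:33686386-33686535) the capitals mark E2F matches. In CCNE1 (plus strand, chr19:29811768-29811917), CDK6 (minus strand, chr7:92836575-92836724) and CCND3 (minus strand, chr6:41941829-41941978) they mark GC boxes.
E2F1: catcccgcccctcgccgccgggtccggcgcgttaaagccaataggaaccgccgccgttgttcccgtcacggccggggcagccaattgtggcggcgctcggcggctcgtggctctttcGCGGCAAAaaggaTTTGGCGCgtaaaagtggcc
CCNE1: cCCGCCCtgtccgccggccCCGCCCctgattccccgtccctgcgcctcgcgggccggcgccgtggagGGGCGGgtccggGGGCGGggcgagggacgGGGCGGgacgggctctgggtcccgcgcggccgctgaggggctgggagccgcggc
CDK6: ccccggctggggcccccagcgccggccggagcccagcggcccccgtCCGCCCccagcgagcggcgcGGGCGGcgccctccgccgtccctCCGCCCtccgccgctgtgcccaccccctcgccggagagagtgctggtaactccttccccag
CCND3: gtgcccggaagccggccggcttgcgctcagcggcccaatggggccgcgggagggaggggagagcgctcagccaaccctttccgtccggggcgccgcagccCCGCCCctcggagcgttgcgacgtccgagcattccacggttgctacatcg

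The E2F motif was searched as TTTCCCGC, TTTCGCGC, TTTGCCGC or TTTGGCGC and the GC box as GGGCGG, each on both strands. E2F1 held 2 E2F matches, GCGGCAAA starting at position -33 and TTTGGCGC starting at -20 relative to its RefSeq start. None of the other 5 windows matched the E2F letters, and 3.31% of all 35116 windows did. GC boxes were in 6 of 6 windows, with 5 in the printed run of CCNE1, 3 in that of CDK6 and 1 in that of CCND3, against 45.0% of all windows. Among 33 windows found likewise for E2F target genes of S phase, 25 (75.8%) held a GC box. A match is a run of letters and not a measured binding site.

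NCD treatment left most of the switch within a 2-fold range and lowered CDK6 and RB1 well beyond it. Levels are CPM scaled by the trimmed mean of M-values (TMM), and differences are log2 fold changes of NCD against DMSO fitted by quasi-likelihood in edgeR, with p-values adjusted after Benjamini and Hochberg over all genes tested. A gene is said to have risen or fallen at an adjusted p below 0.05, and to be differentially expressed if its log2 fold change also exceeded 1 in size. By the latter rule 2 of the 10 genes were differentially expressed, both lower, beside 31.0% of all tested genes (13.5% higher and 17.5% lower). At any fold 9 of the 10 passed, 6 higher and 3 lower, beside 69.3% of all tested genes (35.3% higher and 34.1% lower). The CPM values of the groups did not overlap for 9 of the 10, beside 72.6% of tested genes. The median log2 fold change was 0.30 over the 10 genes and 0.04 over all tested genes. An exact two-sided permutation test of 3 libraries against 3 cannot go below p = 0.1, which each gene but CCNE1 reached.

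**Figure D1:**
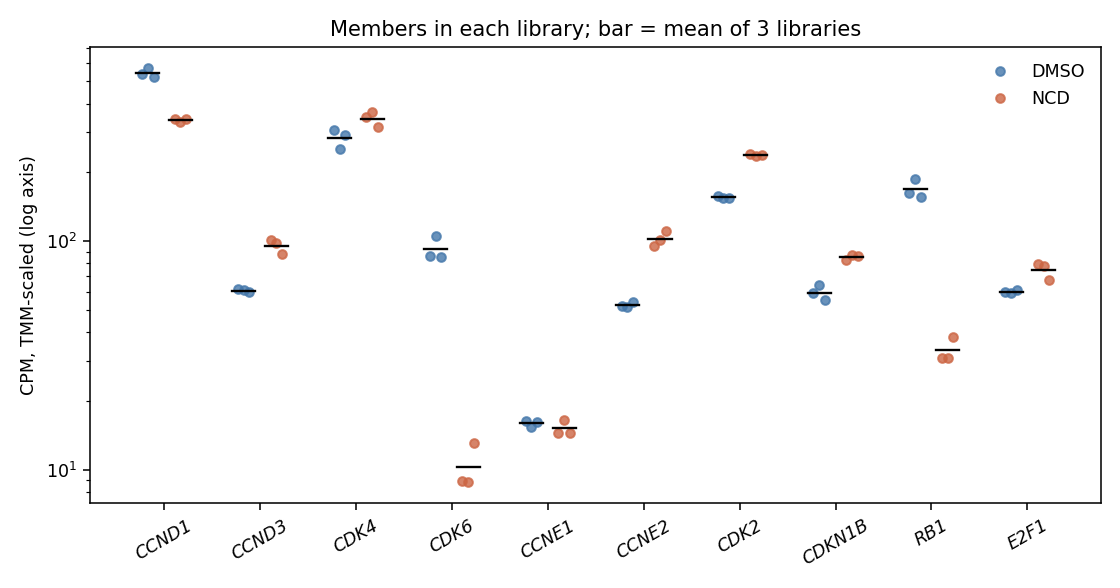
CPM (TMM-scaled, log axis) of each of the 10 genes in the 3 DMSO and 3 NCD libraries, with a bar at each group's mean. CDK6 and RB1 drop from 92.0 to 10.3 and from 168 to 33.3 CPM, and only CCNE1 overlaps between the groups.

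CCND1, which encodes cyclin D1, the main partner of CDK4 and CDK6 in breast epithelium, fell with NCD. CCND1 (ENSG00000110092, chr11:69641087-69654474, plus strand) was at 541, 572 and 522 CPM with the vehicle and at 341, 332 and 341 CPM after treatment with NCD. All NCD libraries lay below all DMSO libraries. The mean went from 545 ± 25.4 to 338 ± 5.41 CPM (SD, n = 3 each), a 1.61-fold lower level (log2 fold change -0.69, standard error 0.06, 95% interval -0.82 to -0.56, adjusted p = 7.21e-06 from edgeR).

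CCND3, encoding cyclin D3, moved the other way. CCND3 (ENSG00000112576, chr6:41934933-42050357, minus strand) was at 61.4, 61.1 and 59.6 CPM with DMSO and at 101, 97.6 and 88.1 CPM with NCD, so that every NCD library was above every DMSO library. Its level rose 1.57-fold (log2 fold change 0.65, standard error 0.07, interval 0.50 to 0.81, adjusted p = 2.81e-05 from edgeR). The third D-type gene, CCND2, is not among the 10 and was far less abundant, at 3.82 ± 0.982 CPM with DMSO and 16.3 ± 0.284 CPM with NCD (log2 fold change 2.09, adjusted p = 4.76e-06 from edgeR).

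On the TMM scale the D-type cyclin transcripts together were lower with NCD, and they were differently composed. Per kilobase of the principal transcript, the 3 D-type cyclins summed to 155, 163 and 150.4 CPM per kb with DMSO and 130.0, 126 and 124 CPM per kb with NCD, a ratio of means of 0.812 without overlap (exact permutation p = 0.1). Per-kilobase sums were computed with TMM scaling alone. With library totals the log2 fold changes were -0.49 for CCND1, 0.85 for CCND3 and 2.28 for CCND2, so the fall of the sum may be smaller there. The log2 ratio of CCND3 to CCND1 counts was -3.14, -3.23 and -3.13 with DMSO and -1.76, -1.77 and -1.95 with NCD. It increased by 1.34, or 2.53-fold, without overlap. On the per-kilobase scale CCND3 made up 18.7% ± 0.561 (SD, n = 3) of the CCND1 and CCND3 sum with DMSO and 36.8% ± 1.75 with NCD.

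CDK6 showed the greatest change of the 10 genes. CDK6 (ENSG00000105810, chr7:92604921-92836594, minus strand) was covered by 1423, 1862 and 1551 counts in DMSO1 to DMSO3 and by 204, 170 and 281 in NCD1 to NCD3, or 85.8, 105 and 85.0 against 8.91, 8.80 and 13.1 CPM. The groups stood well apart, and the highest library of each was DMSO2 or NCD3. The mean fell from 92.0 ± 11.5 to 10.3 ± 2.45 CPM, 8.95-fold (log2 fold change -3.16, standard error 0.16, interval -3.53 to -2.79, adjusted p = 3.2e-07 from edgeR), which placed CDK6 at percentile 2.4 of the log2 fold changes of all tested genes. Without DMSO2 and NCD3 the log2 fold change was -3.27.

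CDK4, the paralog with which CDK6 shares cyclins and substrates, did not follow it. CDK4 (ENSG00000135446, chr12:57747727-57756013, minus strand) was at 307, 253 and 290.4 CPM with DMSO and at 350.3, 366 and 315 CPM with NCD. The lowest NCD library was 315 and the highest DMSO library 307, so the groups were close but did not overlap. The log2 fold change was 0.28 (standard error 0.09, interval 0.08 to 0.47, adjusted p = 0.0176 from edgeR), a 1.21-fold rise that was lost when DMSO2, DMSO3, NCD1 or NCD2 was left out (0.19 to 0.26, adjusted p = 0.0561 to 0.0797). With DMSO2 and NCD3 both left out it was 0.25 (adjusted p = 0.000248).

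Because CDK4 held most of the per-kilobase sum of both kinases, that sum changed little in size on the TMM scale. CDK4 and CDK6 together were at 145 ± 12.3 CPM per kb with DMSO and 166 ± 12.3 CPM per kb with NCD, a ratio of 1.15, and the groups overlapped (exact permutation p = 0.2). Without division by length, mean CPM with DMSO and NCD was 284 and 344 for CDK4 and 92.0 and 10.3 for CDK6. The sum was not computed on that scale or with library totals, where the log2 fold changes were 0.48 (CDK4) and -2.96 (CDK6). The log2 ratio of CDK6 to CDK4 counts was -1.84, -1.27 and -1.77 with DMSO and -5.30, -5.38 and -4.59 with NCD, a difference of -3.46 without overlap. The share of CDK6 in the per-kilobase sum went from 5.55% ± 1.19 to 0.540% ± 0.172 (SD, n = 3 each).

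**Figure D2:**
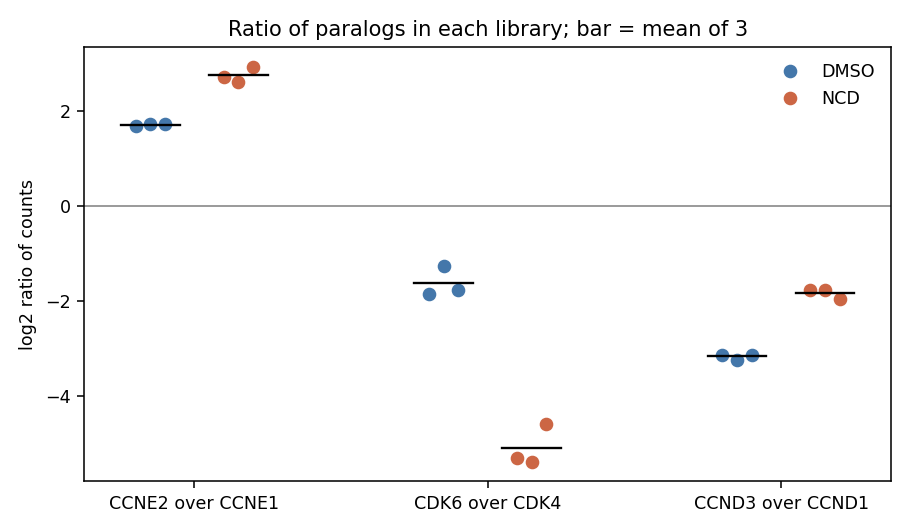
Log2 ratio of counts of CCNE2 to CCNE1, CDK6 to CDK4 and CCND3 to CCND1 in each library, with a bar at the mean of 3 libraries per group. Each pair separates the groups without overlap, by 1.03, -3.46 and 1.34, and a ratio within a library does not depend on library scaling. For CDK6 to CDK4 the highest libraries were DMSO2 (-1.27) and NCD3 (-4.59), the 2 in which long transcripts stood high. The principal transcripts are 11.61 kb long for CDK6 and 2.08 kb for CDK4. The part of transcript length in this ratio was not tested.

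The E-type cyclins diverged as well. CCNE1 (ENSG00000105173, chr19:29811898-29824308, plus strand) was at 16.3, 15.4 and 16.1 CPM with DMSO and at 14.5, 16.5 and 14.5 CPM with NCD. NCD2 held the highest value of all 6 libraries, and the groups overlapped. Its log2 fold change was -0.07 (standard error 0.09, interval -0.29 to 0.14, adjusted p = 0.498 from edgeR), and 0.12 when libraries were scaled by their totals (adjusted p = 0.249), so no direction is given. That interval holds small changes in either direction, which these libraries do not tell apart from no change.

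CCNE2 had the strongest rise of the 10. CCNE2 (ENSG00000175305, chr8:94879770-94896678, minus strand) was at 52.1, 51.5 and 54.0 CPM with DMSO and at 95.3, 101 and 110.4 CPM with NCD, with a wide gap between the groups. The level rose 1.94-fold, just under the fold threshold (log2 fold change 0.96, standard error 0.07, interval 0.80 to 1.12, adjusted p = 3.05e-06 from edgeR), and scaling by library totals put it at 1.16, past that threshold. The log2 ratio of CCNE2 to CCNE1 counts was 1.68, 1.74 and 1.74 with DMSO and 2.72, 2.62 and 2.93 with NCD, a 2.05-fold increase. CCNE2 made up 66.9% ± 0.581 of the per-kilobase sum of both genes with DMSO and 80.5% ± 1.71 with NCD, and that sum went from 23.6 ± 0.546 to 38.1 ± 2.28 CPM per kb (ratio 1.62, exact permutation p = 0.1). Each of the 3 paralog ratios had an exact two-sided permutation p = 0.1, the smallest possible with 3 libraries against 3, and 0.1 after adjustment over the 3 pairs.

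CDK2, the kinase that both E-type cyclins activate, rose with little spread. CDK2 (ENSG00000123374, chr12:55966769-55972784, plus strand) was at 157, 155 and 154 CPM with DMSO and at 240.2, 235 and 237 CPM with NCD. The 1.53-fold rise (log2 fold change 0.61, standard error 0.05, interval 0.50 to 0.73, adjusted p = 5.6e-06 from edgeR) was far larger than the SD of 1.38 and 2.65 CPM.

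CDKN1B, which encodes p27, the inhibitor of cyclin E and CDK2 complexes, also rose. CDKN1B (ENSG00000111276, chr12:12715058-12722371, plus strand) was at 59.2, 64.2 and 55.1 CPM with DMSO and at 82.4, 86.9 and 86.4 CPM with NCD, without overlap. The log2 fold change was 0.52 (standard error 0.07, interval 0.35 to 0.68, adjusted p = 0.000182 from edgeR), or 1.43-fold.

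Of the 6 other CDK inhibitor genes 4 were tested and 3 rose, beside 35.3% of all tested genes, and 2 of these were differentially expressed, beside 13.5%. The median log2 fold change was 0.95, and with library totals 4 rose and 3 were differentially expressed (median 1.15). Under that scaling the median over all tested genes was 0.23. The shares of all tested genes that rose or fell at any fold with library totals are not given here or below. CDKN1A, encoding p21, a target of p53 and of stress pathways, went from 61.2 ± 2.72 to 127 ± 10.4 CPM (log2 fold change 1.05, standard error 0.08, adjusted p = 2.55e-06 from edgeR). CDKN1C, encoding p57, was low and went from 2.90 ± 0.368 to 6.85 ± 0.849 CPM (log2 fold change 1.24, standard error 0.16, adjusted p = 0.000134 from edgeR). The INK4 gene CDKN2C rose from 34.8 to 62.8 CPM (log2 fold change 0.85, adjusted p = 1.15e-05 from edgeR), and CDKN2D was at 14.6 and 18.1 CPM with overlapping groups (0.31, adjusted p = 0.0543, and 0.34, adjusted p = 0.0203, without DMSO2 and NCD3). CDKN2A and CDKN2B, at 0 counts, could not be tested.

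**Figure D3:**
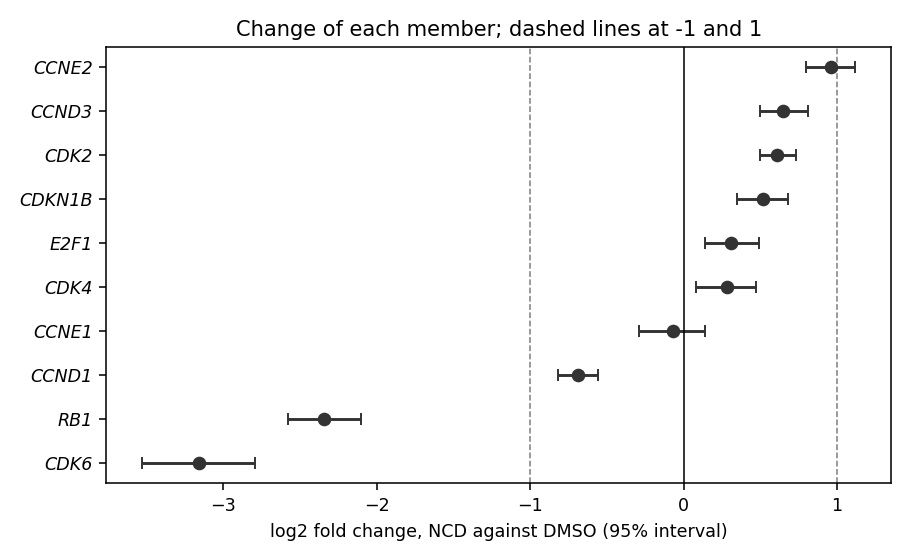
Log2 fold change of NCD against DMSO for each of the 10 genes with its 95% interval from the edgeR fit. The dashed lines mark the fold threshold at -1 and 1, which CDK6 (-3.16) and RB1 (-2.34) pass and CCNE2 (0.96) approaches.

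RB1, the pocket protein that CDK4, CDK6 and CDK2 phosphorylate, fell strongly. RB1 (ENSG00000139687, chr13:48303726-48599436, plus strand) was covered by 2689, 3302 and 2847 counts in DMSO1 to DMSO3 and by 706, 595 and 818 in NCD1 to NCD3, or 162, 187 and 156 against 30.8, 30.8 and 38.1 CPM. No NCD library came near a DMSO library, and DMSO2 and NCD3 were again the highest of their groups. The mean fell from 168 ± 16.3 to 33.3 ± 4.23 CPM, 5.06-fold (log2 fold change -2.34, standard error 0.11, interval -2.58 to -2.10, adjusted p = 1.58e-07 from edgeR), and without those 2 libraries the log2 fold change was -2.37. In RNA from bulk cultures, fewer cells holding a transcript and less of it per cell cannot be told apart.

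The 2 other pocket protein genes fell too. RBL1, encoding p107, was at 65.1, 72.0 and 62.6 CPM with DMSO and 27.6, 26.6 and 31.5 CPM with NCD (log2 fold change -1.22, standard error 0.09, adjusted p = 2.97e-06 from edgeR). RBL2, encoding p130, was at 60.9, 73.4 and 66.5 CPM with DMSO and 23.2, 22.7 and 29.5 CPM with NCD (log2 fold change -1.41, standard error 0.12, adjusted p = 6.18e-06 from edgeR). Summed per kilobase, RB1, RBL1 and RBL2 went from 60.5 ± 5.31 to 17.1 ± 2.11 CPM per kb, a ratio of 0.283 (exact permutation p = 0.1). RB1 alone accounted for 35.1 CPM per kb with DMSO and 6.94 CPM per kb with NCD.

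E2F1, the best known of the activator E2Fs, rose slightly. E2F1 (ENSG00000101412, chr20:33675683-33686404, minus strand) was at 59.8, 59.4 and 61.2 CPM with DMSO and at 79.1, 77.8 and 67.5 CPM with NCD. NCD3 was the lowest of its group but still above every DMSO library. The log2 fold change was 0.31 (standard error 0.08, interval 0.14 to 0.49, adjusted p = 0.00484 from edgeR), or 1.24-fold.

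The other E2F genes did not move as a family. Among the activators, E2F2 rose from 6.23 to 13.9 CPM (log2 fold change 1.16, standard error 0.12, adjusted p = 3.01e-05 from edgeR) and E2F3 fell from 54.4 to 29.6 CPM (-0.88, adjusted p = 1.45e-05). Among the repressors, E2F6 (0.88) and E2F8 (0.63) rose, with adjusted p = 5.3e-06 and 6.66e-05. E2F4 (-0.33, adjusted p = 0.000748) and E2F7 (-0.23, adjusted p = 0.0443) fell, but not when libraries were scaled by their totals (-0.14 and -0.03, adjusted p = 0.0684 and 0.803). E2F5 was at 11.2 and 12.7 CPM (0.19, adjusted p = 0.107). The dimerization partners fell, TFDP1 by 0.52 and TFDP2 by 0.86 on the log2 scale (adjusted p = 2.92e-05 and 7.22e-06). With the pocket proteins and the MuvB complex, which represses cell cycle genes in quiescence, 18 such genes were tested. Of these 6 rose and 9 fell (median -0.22), beside 35.3% and 34.1% of all tested genes, but with library totals 8 rose and 7 fell (median -0.02). LIN37 of MuvB rose from 4.28 to 11.7 CPM (log2 fold change 1.45, adjusted p = 1.42e-05).

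Target genes of E2F in S phase were spread on both sides of 0. Of 39 tested, 12 rose, 15 fell and 12 did not pass, beside 35.3% of all tested genes that rose and 34.1% that fell. By the fold rule 3 (7.69%) were differentially expressed, beside 31.0% of all tested genes. The median log2 fold change was -0.13, and 0.07 when libraries were scaled by their totals, where 19 rose and 11 fell. CDT1, which licenses replication origins, rose from 30.4 ± 1.36 to 86.3 ± 10.0 CPM (2.84-fold, standard error 0.10 on the log2 scale, adjusted p = 1.19e-06 from edgeR). POLA1, the catalytic subunit of DNA polymerase alpha, was at 50.7, 57.9 and 51.4 CPM with DMSO and 4.59, 3.10 and 4.52 CPM with NCD (log2 fold change -3.70, standard error 0.14, adjusted p = 6.02e-08 from edgeR). Promoter windows were found for 33 of the 39, and 18 of these (54.5%) held an E2F match. The 18 had a median log2 fold change of -0.14 (6 rose, 8 fell) and the other 15 a median of 0.13 (6 rose, 3 fell).

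The CDK-activating kinase, which phosphorylates CDK2, CDK4 and CDK6 on their T-loops, had lower transcript levels for its 3 subunits, by unequal amounts. MNAT1, its assembly factor, was at 103, 86.0 and 89.8 CPM with DMSO and 11.5, 9.11 and 9.70 CPM with NCD (log2 fold change -3.20, standard error 0.11, adjusted p = 4.5e-08 from edgeR). CCNH, its cyclin, fell from 99.4 ± 7.01 to 46.8 ± 2.54 CPM (-1.09, adjusted p = 2.1e-06), and CDK7, its kinase, went from 87.3 to 71.2 CPM (-0.29, adjusted p = 0.0158, and -0.10, adjusted p = 0.3, with library totals). Of the 11 other cyclin and CDK genes, 2 rose and 4 fell (median 0.05), beside 35.3% and 34.1% of all tested genes. But with library totals 5 rose and 2 fell (median 0.25). CCNA1, a cyclin of the germ line, rose besides CCND2 (10.9 to 23.2 CPM, log2 fold change 1.08, adjusted p = 1.55e-05). CCNA2, the partner of CDK2 in S phase, was at 205 and 223 CPM (0.12, adjusted p = 0.107).

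Genes acting on G1 cyclins and CDKs through degradation or dephosphorylation moved both ways, with 6 of 17 higher and 6 lower (median 0.10), beside 35.3% and 34.1% of all tested genes. With library totals 10 rose and 5 fell (median 0.30). The 3 that were differentially expressed (17.6% of the list) were all lower, beside 17.5% of all tested genes, and belong to ubiquitin ligases. FBXW7, which targets cyclin E, fell from 15.9 to 4.18 CPM (log2 fold change -1.92, standard error 0.14, adjusted p = 2.31e-06 from edgeR). AMBRA1, which targets D-type cyclins, fell from 19.6 to 5.79 CPM (-1.76, standard error 0.14, adjusted p = 4.87e-06). CUL1, the scaffold of SCF ligases, fell from 99.9 to 45.9 CPM (-1.12, standard error 0.08, adjusted p = 2.58e-06).

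Of 15 genes of G2 and M phase, 11 fell and 4 did not pass (median -0.45), beside 34.1% of all tested genes that fell. With library totals 2 rose and 5 fell (median -0.25), and without DMSO2 and NCD3 1 rose and 13 fell (median -0.48). BUB1B, of the spindle checkpoint, fell from 109 to 38.4 CPM (log2 fold change -1.51, standard error 0.10, adjusted p = 1.37e-06 from edgeR). CENPE, a kinetochore motor with a long transcript, was at 27.4, 55.8 and 47.1 CPM with DMSO and 3.85, 5.74 and 15.1 CPM with NCD (-2.40, standard error 0.45, adjusted p = 0.0011), where DMSO2 and NCD3 were again highest, and at a log2 fold change of -2.99 without both. CENPF, another long kinetochore gene, was at 87.4, 168 and 136 CPM with DMSO and 37.9, 49.4 and 117 CPM with NCD (-0.94, adjusted p = 0.0571) and at -1.38 without both libraries (adjusted p = 9.38e-07). Over all 6 lists, 104 of 106 genes were tested and 18 (17.3%) were differentially expressed, 7 higher and 11 lower, beside the 31.0% of all tested genes.

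**Figure D4:**
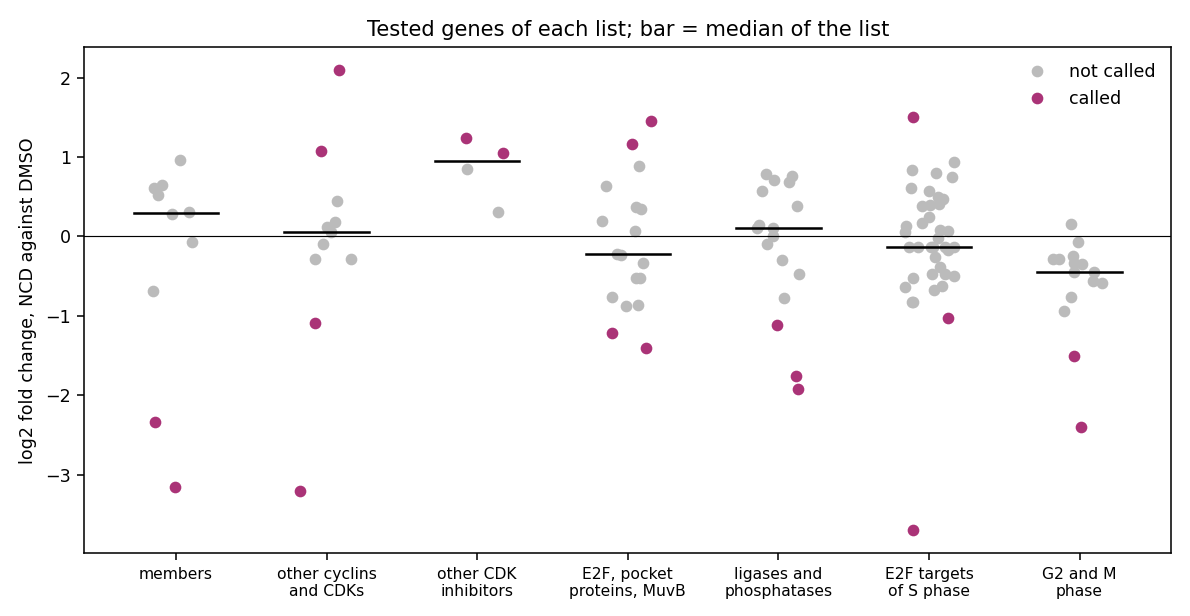
Log2 fold change of every tested gene among the 10 genes (labelled members) and in each of 6 lists of related genes, with differentially expressed genes coloured and a bar at each median. Medians run from -0.45 for G2 and M phase genes to 0.95 for the other CDK inhibitors.

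The 2 genes that fell most also had the 2 longest genomic spans of the 10 principal transcripts. The principal transcripts of CDK6 and RB1 span 229.0 and 178.2 kb of the genome, and those of the other 8 span 4.8 to 16.9 kb. The 12685 tested genes with a principal transcript were divided into 10 equal groups by this span. In the group of longest genes (140.6 to 2169.4 kb) the median log2 fold change was -2.25, the quartiles were -3.19 and -1.52, and 87.0% were differentially expressed and lower. Within it CDK6 stood at percentile 25.8 and RB1 at percentile 47.4, both between the quartiles. In the 4 groups of shortest genes, which hold the other 8, the medians were 0.33 to 0.43. CCND3, which rose, is among these by its principal transcript (6.9 kb), but its annotated gene spans 115.4 kb.

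Seen against genes of like span, CCND1 was the one that stood lowest. It lay at percentile 4.5 of the genes of 9.1 to 13.8 kb, whose median was 0.43, and CCNE1 lay at percentile 18.4 and E2F1 at 41.7 of the same group. CDK4 lay at percentile 47.3 of the shortest genes, and CDKN1B, CDK2 and CCND3 lay at 56.2, 61.5 and 64.1 of the genes of 5.0 to 9.1 kb. CCNE2 was highest, at percentile 79.7 of the next group, whose median was 0.37. These percentiles describe the libraries and carry no test. In the 6 lists the 11 lower genes spanned 18.8 to 303.1 kb (median 92.6 kb), with 9 above 40 kb, among them POLA1 (303.1 kb), MNAT1 (235.2 kb), AMBRA1 (195.0 kb), RBL1 (99.6 kb) and RBL2 (57.2 kb). The 7 higher genes spanned 2.6 to 31.6 kb (median 8.6 kb), with 0 above 40 kb, and the 86 others had a median of 29.4 kb, with 29 above 40 kb. The part of span in the changes of CDK6 and RB1 was not tested.

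**Figure D5:**
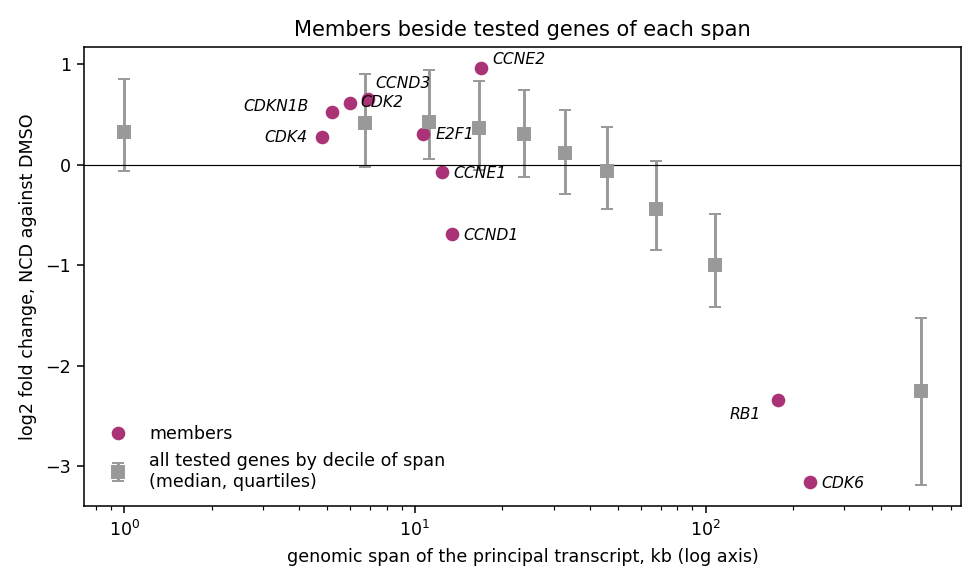
Log2 fold change of each of the 10 genes (labelled members) against the genomic span of its principal transcript in kb (log axis), beside the median and quartiles of tested genes in 10 groups of equal size by span, drawn at the middle of each group's range on the log axis. CDK6 and RB1 lie far right, where the median is -2.25, and the other 8 genes lie at 16.9 kb or less. CCND3 is drawn at 6.9 kb, and its annotated gene spans 115.4 kb.

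On the per-kilobase scale the order of the 10 transcripts changed with NCD. With DMSO, CDK4 (137 ± 13.3 CPM per kb) and CCND1 (126 ± 5.89) led and overlapped, followed by CDK2 (67.6), RB1 (35.1), CCND3 (29.1), E2F1 (24.0), CDKN1B (22.4) and CCNE2 (15.8), with CDK6 (7.93) and CCNE1 (7.80) last. The libraries of E2F1 and CDKN1B overlapped, as did those of CDK6 and CCNE1. With NCD the order was CDK4 (166 ± 12.5 CPM per kb), CDK2 (103), CCND1 (78.5) and CCND3 (45.8), then CDKN1B (32.1), CCNE2 (30.7) and E2F1 (29.9), whose neighbours overlapped, then CCNE1 (7.41) and RB1 (6.94), which overlapped, and CDK6 (0.884) apart at the end. RB1 went from place 4 to place 9.

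The annotated gene spans of some of these loci overlap those of transcribed neighbours on the opposite strand. Overlap of their exons, or with the principal transcript, is not given here. The strandedness of the counting was not given in the sources used here, so reads of such partners may not be told apart. RB1 overlaps RCBTB2 (125 to 465 counts per library, log2 fold change 1.32), which moved opposite to RB1. CCND1 overlaps LTO1 (419 to 1256 counts, 0.89), CCNE2 overlaps INTS8 and NDUFAF6 (736 to 1088 counts, -0.48, and 234 to 355 counts, -0.00), CDK4 overlaps TSPAN31 and MARCH9 (340.2 to 474 counts, -0.07, and 126 to 311 counts, 0.78), and CDK2 overlaps PMEL (22 to 78 counts, 0.94). The remaining 5 genes overlap none with more than 20 counts.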

How the data were processed

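RNA-seq libraries from MDA-MB-231 cells (3 with DMSO, 3 with NCD) were analysed. The authors aligned reads with HISAT2 and deposited expected counts from RSEM per Ensembl gene, without normalization; the submitters' processing notes name GRCh38 (hg38), and versions, annotation release and strandedness are not given in the sources used here. In each file 25 lines without a gene were skipped. Expected counts were rounded, filtered with filterByExpr, scaled by TMM (factors 0.911 to 0.949 with DMSO, 1.059 to 1.092 with NCD) and tested with glmQLFit and glmQLFTest in edgeR 4.0.16 (R 4.3.3), and standard errors are the absolute log2 fold change over the square root of F. Permutation tests used scipy 1.17.1. The fit was also run on simulated counts with 200 changed genes, far fewer than passed here, so that run lends no support to the results. Symbols came from a separate reference list of gene names. Positions, spans and lengths (APPRIS principal transcript) came from GENCODE 29, which held 58228 of 63241 identifiers. Totals of 18223594 to 21629653 counts set the counting error, and count limits reflect that error alone. Libraries of a group differed by more than counting error, with a chi-square per degree of freedom of 2.09 to 16.9.

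The 10 genes, the lists and the tests were chosen with earlier results of these data known, so none is independent evidence. The text names all 10 genes, every CDK inhibitor, E2F and DP gene, and up to 3 differentially expressed genes per direction and list by smallest p; an item that this rule covers is not reported here. CDK7, CCNA2, CENPF, the overlapping neighbours and the marker genes were named after their values were seen. Alternatives were DESeq2 1.42.0 (adjusted and unadjusted p), limma-voom (limma 3.58.1), library totals, DESeq2 size factors, 2 other count filters, no fold threshold, a pseudocount of 1 in the ratios, the replicate number as a block, and leaving libraries out.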

Additional observations from a re-analysis of the deposited data

How the results depend on the processing

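Of 150 alternative values for the 10 genes (15 per gene), 145 kept the direction and the side of adjusted p of 0.05, and CDK6 and RB1 were differentially expressed under every alternative run. The exceptions were CDK4 without DMSO2, DMSO3, NCD1 or NCD2 and CCNE1 with library totals (0.12, against -0.07). That scaling raised the median log2 fold change by 0.20, gave 2793 higher and 2181 lower genes in place of 2067 and 2669, and added CCNE2 to the differentially expressed genes. Under it CCNH (-0.89) and CUL1 (-0.92) fell short of the fold threshold, and CDKN2C (1.05) and E2F6 (1.08) passed it. Without the fold threshold, as its construction implies, 10602 genes (5393 higher, 5209 lower), 9 of the 10 and 74 list genes passed. With at least 10 counts in every library, where fewer genes were tested, 1376 were higher. Leaving out 1 library at a time gave 4653 to 5049 differentially expressed genes (2014 to 2136 higher, 2608 to 3005 lower), 2 of the 10 in each case (2 to 2), 17 to 20 list genes, and log2 ratio differences of 0.95 to 1.10 for CCNE2 over CCNE1, -3.71 to -3.28 for CDK6 over CDK4 and 1.31 to 1.40 for CCND3 over CCND1. Without both DMSO2 and NCD3, an alternative chosen after seeing the data, 4925 genes were differentially expressed, 2 of the 10 among them.

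No pairing by replicate number was found, since deviations from the group means correlated by 0.368, -0.332 and 0.015 between libraries of the same number, and only number 1 correlated best with its own. With the replicate block 4723 genes were differentially expressed (2056 higher, 2667 lower), with 2 of the 10 and 19 list genes. The block left the log2 ratio differences at 1.03, -3.46 and 1.34 (exact sign-flip p = 0.25, the smallest that 3 pairs allow). Among the 10 genes CDK6 with NCD rested on 170 to 281 counts, and list genes such as CDKN1C (46 to 170 counts) on fewer.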
